A study of Mus musculus with 6 samples.

Results

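Keratins are the intermediate filament proteins of epithelial cells. Type I keratins are acidic, type II keratins are basic or neutral, and a filament forms only when a chain of one type pairs with a chain of the other. In mouse epidermis the dividing basal layer makes the pair Krt5 and Krt14, cells that leave it to differentiate switch to Krt1 and Krt10, and wounding, inflammation or growth in culture brings on Krt6a, Krt6b, Krt16 and Krt17. Krt8 and Krt18 form the filaments of simple, single-layered epithelia, and a large set of further keratins builds the hair shaft and the sheaths of the follicle.

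The family was taken from gene names: every gene whose mouse symbol is Krt, a number and at most 1 letter, and which is annotated as protein coding. Of 52550 genes in the deposited table, 54 had such a symbol. Krt74 was annotated as other than protein coding, which left 53 keratins, 28 of type I and 25 of type II. By the part of the epithelium they are best known from, 3 were placed as basal, 4 as stress, 8 as suprabasal, 6 as simple epithelial, 4 as mucosal or corneal, 24 as hair and follicle keratins and 4 as others. The rule itself reads names and annotation alone.

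Transcripts were sequenced from primary keratinocytes of wild type C57BL/6 mice, peeled from the skin epidermis at 0 to 2 days of age and grown for 2 days. One group of 3 libraries had received recombinant IL-33, an IL-1 family cytokine, for 12 h, and a group of 3 libraries was left untreated. Nothing else distinguished the groups in the labels, and the sources used here do not give the IL-33 dose. No label states that the libraries of a group are separate cultures or animals, so each p-value measures no more than the spread between 3 and 3 libraries, and that spread may be technical.

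Library totals were 34188173 to 44255925 deposited counts with IL-33 and 41456441 to 45266298 untreated, with IL-33 replicate 2 the shallowest. The keratinocyte markers Krt5, Krt14, Trp63, Itga6, Itgb4 and Col17a1 summed to 15101 to 16256 FPKM (fragments per kilobase, scaled to library depth) with IL-33 and 14995 to 15479 FPKM untreated, most of it from Krt5 and Krt14, which are themselves members. The other 4 of these markers had log2 fold changes below 0: Itgb4 stood at 122 ± 11.8 FPKM with IL-33 and 144 ± 0.998 FPKM untreated without overlap (log2 fold change -0.23; edgeR adjusted p = 0.575), and Trp63, Itga6 and Col17a1 lay between -0.06 and -0.01. Their part in the keratin values was not tested. Markers of fibroblasts summed to 2.84 to 3.28 FPKM with IL-33 and 3.17 to 4.21 FPKM untreated, and those of endothelial cells to 1.78 to 1.88 and 1.43 to 2.19 FPKM. Melanocyte markers were well above these, at 446 to 484 FPKM with IL-33 and 443 to 466 FPKM untreated. Immune markers summed to 0.249 to 2.01 FPKM with IL-33 and 0 to 0.519 FPKM untreated, with Cd207, Cd3e, Cd3g and Itgax at 0 in every library. The upper end came from Lyz2 in IL-33 replicate 3, at 2.00 FPKM. Lyz2 had 0.249 and 0.321 FPKM in IL-33 replicates 1 and 2. The 4 sebaceous markers summed to 0.167 to 0.285 FPKM with IL-33 and 0.195 to 0.376 FPKM untreated, with Awat1 and Mc5r at 0. In bulk RNA, fewer cells of a type and less RNA per cell cannot be told apart.

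These cultures made keratin transcripts in very large amounts, and nearly all of that amount came from 4 genes. Summed over the family, keratins stood at 24634, 25390 and 23543 FPKM in IL-33 replicates 1 to 3, against 23093, 23962 and 23418 FPKM in untreated replicates 1 to 3. The ranges of both groups overlapped, and IL-33 replicate 2 was the highest library. The means were 24522 ± 928 FPKM with IL-33 and 23491 ± 439 FPKM untreated (SD, n = 3 each), a log2 ratio of 0.06. Keratins took 5.30 ± 0.193% of all deposited counts with IL-33 and 5.09 ± 0.0924% untreated.

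Krt5, Krt14, Krt17 and Krt6a were the 4 highest of all genes by FPKM in each of the 6 libraries, with Krt5 and Krt14 exchanging ranks 1 and 2. Together they made up 97.4 ± 0.0746% of keratin FPKM with IL-33 and 97.5 ± 0.0595% untreated. Krt6b ranked 96 to 109 among all genes. Krt16 ranked 179 to 190 with IL-33 and 220 to 230 untreated, so that its places in the 2 groups did not overlap. Below these 6 genes the levels dropped steeply: 8 keratins had a mean of at least 10 FPKM over all libraries, 11 had at least 1 FPKM, and 17 were at 0 in all libraries.

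**Figure D1:**
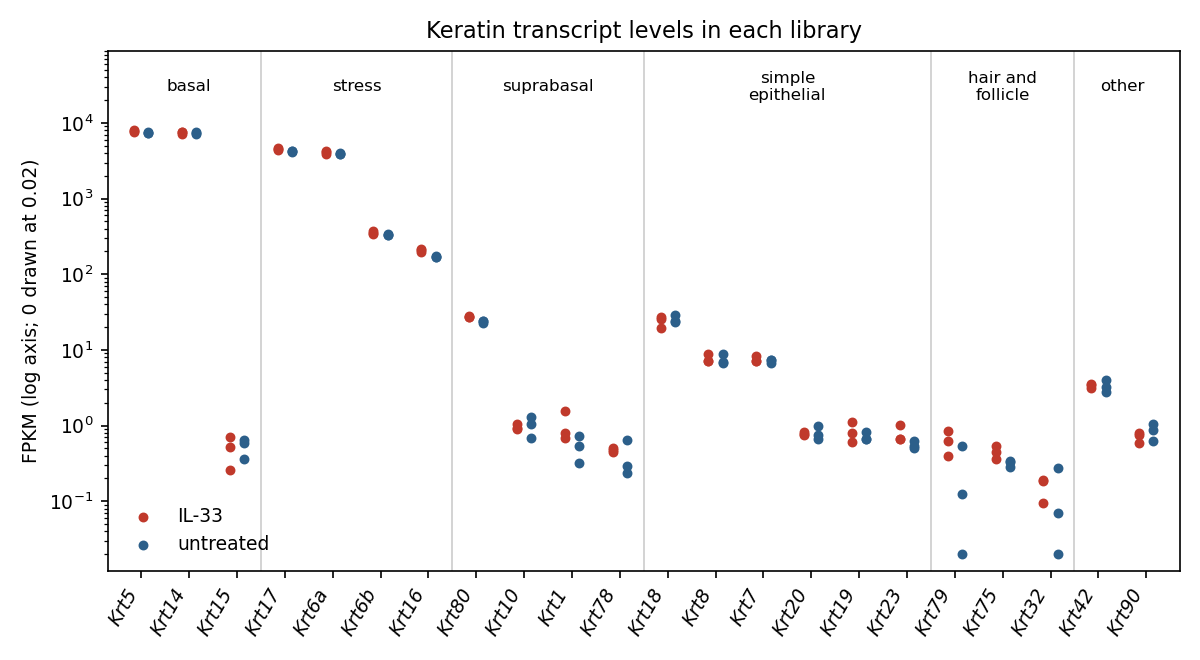
FPKM of the 22 keratins that passed the filter on low counts, in each library (log axis, a value of 0 drawn at 0.02), ordered by role and then by level, with IL-33 libraries on the left of each pair and untreated libraries on the right. The basal pair Krt5 and Krt14 and the stress keratins Krt17 and Krt6a stood at 3875 FPKM or more in every library, while Krt1 and Krt10 were at 0.325 to 1.56 FPKM.

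The type I and type II sums matched closely. Type I keratins summed to 12250 ± 435 FPKM with IL-33 and 11767 ± 300 FPKM untreated, and type II keratins to 12273 ± 501 FPKM with IL-33 and 11724 ± 144 FPKM untreated (SD, n = 3 each). The ratio of type II to type I was 0.991, 1.01 and 1.00 in the IL-33 libraries, against 1.01, 0.984 and 0.993 in the untreated libraries. It was thus near 1 in every library, with overlapping groups. Krt18 is the exception to the layout of the family in the genome: it is a type I gene beside Krt8 on chromosome 15, where the 25 type II genes lie, while the other 27 type I genes are on chromosome 11.

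**Figure D2:**
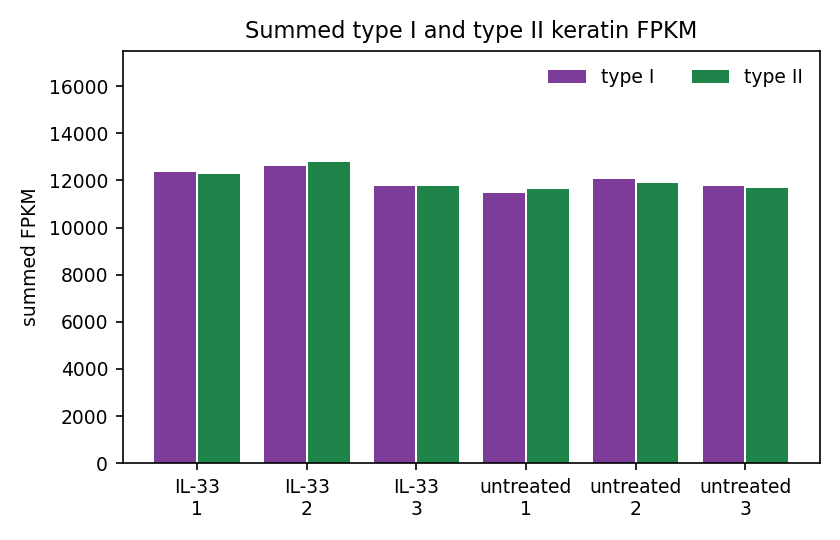
Summed FPKM of the 28 type I and the 25 type II keratins in each library, IL-33 libraries on the left and untreated libraries on the right. The paired bars are nearly equal in every library, with ratios of type II to type I between 0.984 and 1.01.

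The abundant genes sat next to each other in the order of keratin genes along both chromosomes. On chromosome 11 the neighbours Krt14, Krt16 and Krt17 averaged 7418, 189 and 4369 FPKM over the 6 libraries, while Krt9 beside them was at 0. On chromosome 15 the neighbours Krt6b, Krt6a and Krt5 averaged 344, 4006 and 7605 FPKM, with Krt75 at 0.383 FPKM on one side and Krt71 at 0.0328 FPKM on the other. The hair keratins of both clusters were at or near 0.

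**Figure D3:**
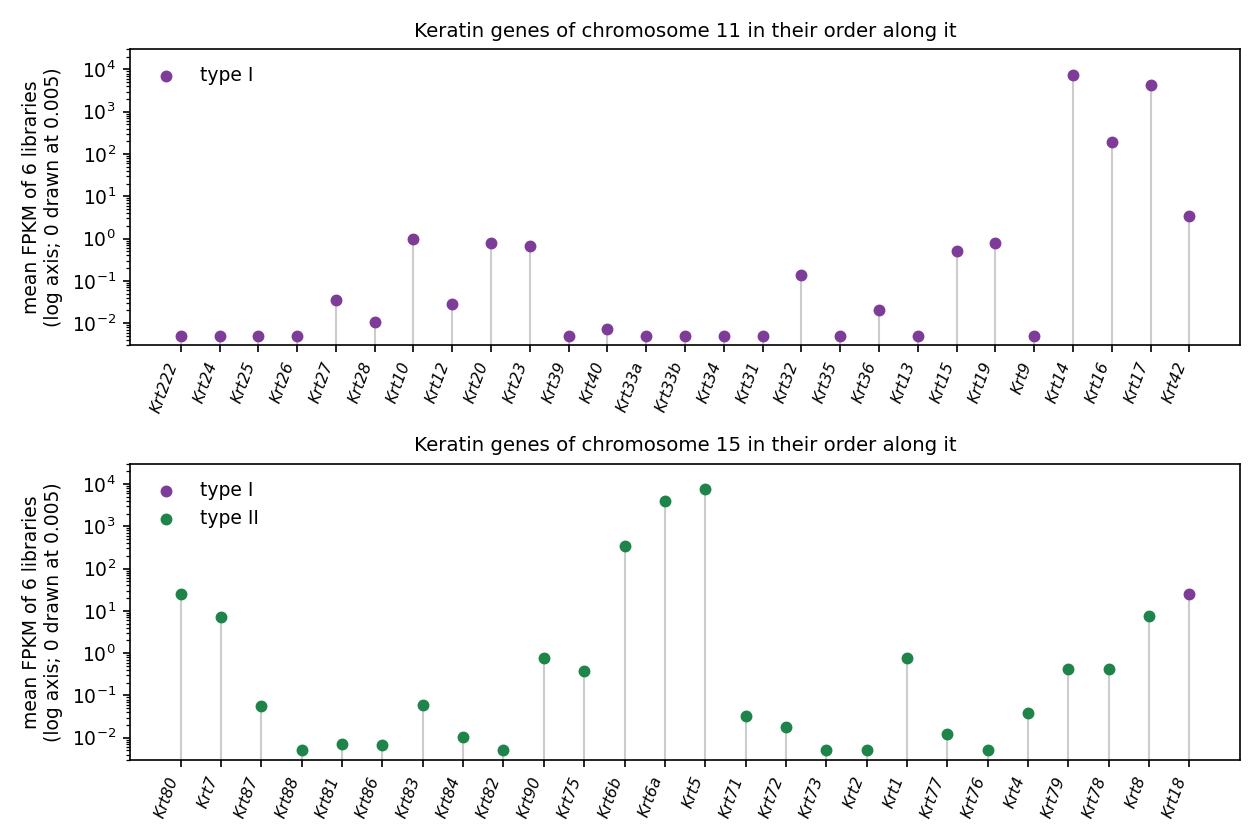
Mean FPKM over the 6 libraries (log axis, a value of 0 drawn at 0.005) of each keratin gene in its order along chromosome 11 (top) and chromosome 15 (bottom). The high genes are neighbours: Krt14, Krt16 and Krt17 on chromosome 11, and Krt6b, Krt6a and Krt5 on chromosome 15.

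The comparison of IL-33 with untreated cells asked which keratins respond to the cytokine within 12 h. Of the 53 keratins, 22 passed the filter on low counts and were tested, 11 of each type. The other 31 comprised 17 at 0 in all libraries, 12 at or under the floor of 12 deposited counts (about 3 fragments) in each library, and 2, Krt83 and Krt4, above it in some library with at most 21 counts. No keratin passed an adjusted p of 0.05 in edgeR's quasi-likelihood test with Benjamini-Hochberg adjustment over all 15778 genes tested, of which 11 passed (0.0697%). At an unadjusted p under 0.05 there were 4, Krt16, Krt80, Krt17 and Krt1, each higher with IL-33, where 6.74% of all genes had such a p and 3.42% had it with a higher value. DESeq2 called 1, Krt16 (0.463% of all genes), and limma-voom and limma on log2 FPKM called 0.

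Most of the tested keratins had positive log2 fold changes. These were 0.03 to 0.28 in the 6 keratins of at least 50 FPKM, while several low keratins had larger ones with wide intervals. As a description, of the 22, 17 had a log2 fold change above 0 (50.5% of all genes did) and 5, Krt10, Krt18, Krt20, Krt90 and Krt15, had one below 0. Their median was 0.08, against 0.00 for all genes tested. In 6 keratins, Krt5, Krt17, Krt16, Krt80, Krt23 and Krt75, each IL-33 library was above each untreated library (7.39% of all genes), and in 0 keratins the groups were separated the other way (6.26% of all genes). The 6 keratins of at least 50 FPKM share these libraries, and in 5 of them, all but Krt16, IL-33 replicate 2 had the highest level of the 6 libraries.

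**Figure D4:**
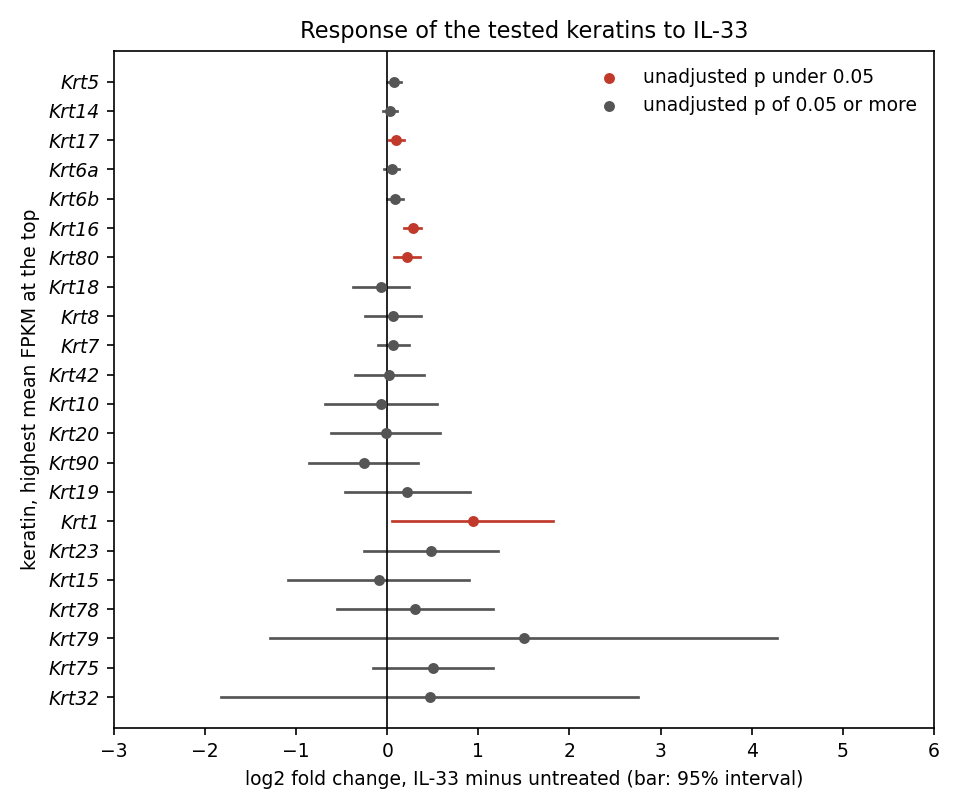
Log2 fold change of each tested keratin, IL-33 minus untreated, with its 95% interval from the edgeR fit, ordered from the highest mean FPKM at the top. The points are red where the unadjusted p was under 0.05 (Krt16, Krt80, Krt17 and Krt1), and the intervals widen for the low keratins at the bottom.

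The basal pair differed little between the groups. Krt5 (chr15:101707070-101712898, minus strand), the type II basal keratin, had 7746, 8144 and 7517 FPKM with IL-33, against 7371, 7503 and 7350 FPKM untreated. All IL-33 libraries were above all untreated ones, by a narrow margin between IL-33 replicate 3 and untreated replicate 2. The means were 7802 ± 317 FPKM with IL-33 and 7408 ± 82.8 FPKM untreated, with a log2 fold change of 0.07 (SE 0.034; edgeR adjusted p = 0.750). Krt14 (chr11:100203162-100207548, minus strand), its type I partner, had 7592, 7699 and 7190.2 FPKM with IL-33, against 7191, 7549.99 and 7287 FPKM untreated. Its groups overlapped, with IL-33 replicate 3 the lowest of all 6 libraries. Its means were 7494 ± 268 FPKM with IL-33 and 7343 ± 186 FPKM untreated, with a log2 fold change of 0.03 (SE 0.035; edgeR adjusted p = 0.905).

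The partners of this pair were present in nearly equal amounts. Krt5 over Krt14, in FPKM, was 1.02, 1.06 and 1.05 with IL-33, against 1.02, 0.994 and 1.01 untreated. The ranges of Krt5 and Krt14 overlapped over the 6 libraries, while Krt14 was clear of Krt17, the next gene in the order. Krt15, a type I keratin of basal cells and of the follicle bulge, was far lower, at 0.255 to 0.716 FPKM with IL-33 and 0.360 to 0.652 FPKM untreated (log2 fold change -0.10, SE 0.45). The 3 basal keratins together made up 62.4 ± 0.105% of keratin FPKM with IL-33 and 62.8 ± 0.280% untreated.

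The stress keratins were high with IL-33 and in untreated cells alike. Krt6a, Krt6b, Krt16 and Krt17 are brought on in wound edges and in thickened, inflamed epidermis, and Krt17 and Krt6a are also made in the hair follicle. Together they summed to 9149 ± 364 FPKM with IL-33 and 8667 ± 196 FPKM untreated (SD, n = 3 each), which was 37.3 ± 0.109% and 36.9 ± 0.301% of keratin FPKM. All 4 had a positive log2 fold change, but the adjusted threshold in edgeR was not reached by any of them.

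Krt16 (chr11:100246091-100248902, minus strand), the type I partner of Krt6, had the clearest difference in the family. It had 213, 199.5 and 208 FPKM with IL-33, against 167, 170.1 and 174 FPKM untreated. The 3 IL-33 libraries lay close together and well above the 3 untreated ones. Its mean was 207 ± 6.94 FPKM with IL-33 and 170.5 ± 3.56 FPKM untreated, a log2 fold change of 0.28 (SE 0.041, 95% interval 0.19 to 0.37), or 21.4% higher with an interval of 13.95 to 29.3%. In edgeR its unadjusted p was 5.07e-05 and its adjusted p 0.0666, just over the threshold. It passed in DESeq2 (adjusted p = 0.000265), in edgeR without IL-33 replicate 3 (0.0334; 0.553% of all genes passed) and in edgeR with no filter on low counts (0.0363; 0.0724% of all genes passed), and its adjusted p reached 0.274 at the other end of the settings tried.

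Krt17 (chr11:100256217-100261029, minus strand), a type I keratin of wound-edge and follicle cells, had 4533, 4686 and 4334 FPKM with IL-33, against 4081, 4323 and 4259.5 FPKM untreated. The groups did not overlap, but IL-33 replicate 3 was only just above untreated replicate 2. Its log2 fold change was 0.10 (SE 0.037; edgeR adjusted p = 0.740). Krt6a (chr15:101689910-101694307, minus strand), a type II stress keratin, had 4117, 4221 and 3875 FPKM with IL-33, against 3877, 4012 and 3934 FPKM untreated. Here IL-33 replicate 3 was the lowest of the 6 libraries, so the groups overlapped. Its log2 fold change was 0.05 (SE 0.036; edgeR adjusted p = 0.842). Krt6b (chr15:101676023-101680287, minus strand), its close relative, had 352, 368 and 339.8 FPKM with IL-33, against 328, 331 and 344 FPKM untreated. IL-33 replicate 3 was below untreated replicate 3, and the log2 fold change was 0.08 (SE 0.039; edgeR adjusted p = 0.763).

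**Figure D5:**
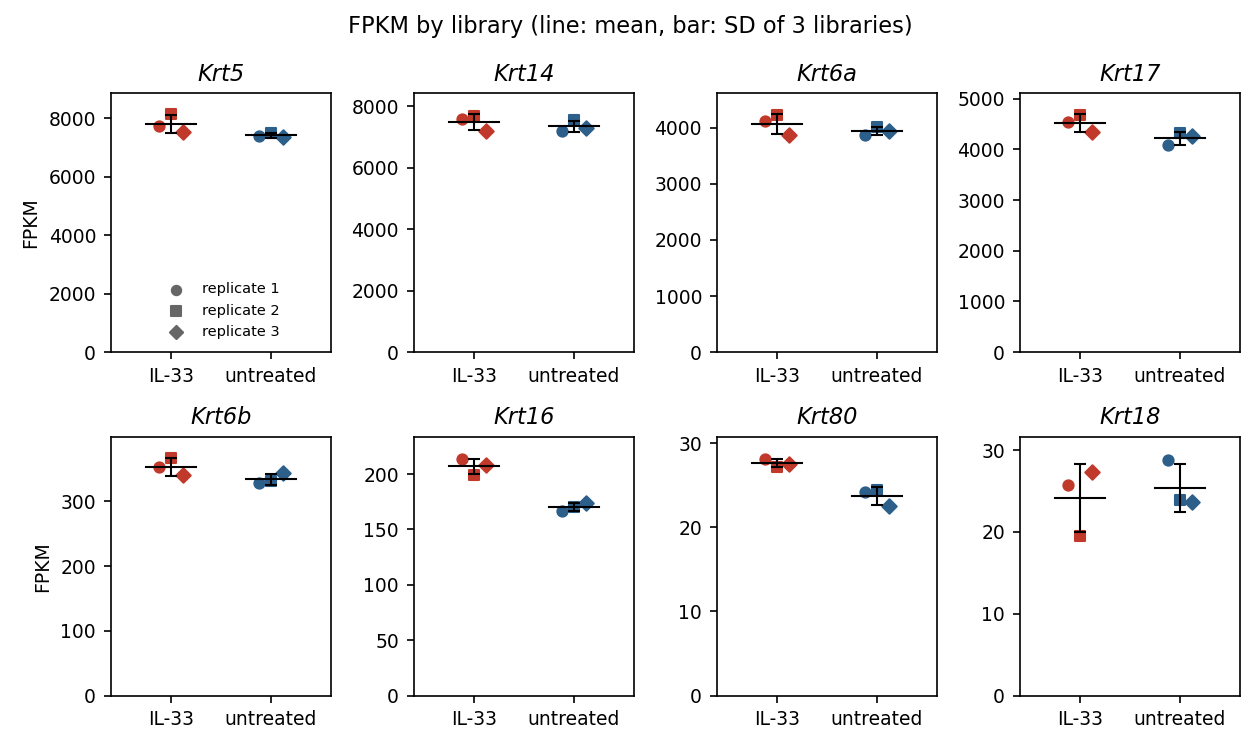
FPKM of 8 keratins in each library, with the replicate number shown by the marker, the mean as a line and the SD of 3 libraries as a bar, IL-33 left and untreated right. Krt16 and Krt80 separate the groups with a gap, Krt5 and Krt17 by a narrow margin, and the groups overlap for Krt14, Krt6a, Krt6b and Krt18.

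Within the stress keratins the proportions differed between the groups by small amounts. Krt17 over Krt16 was 21.2, 23.5 and 20.9 with IL-33, against 24.4, 25.4 and 24.5 untreated, with each IL-33 library below each untreated one. Krt6a over Krt17 was 0.908, 0.901 and 0.894 with IL-33, against 0.950, 0.928 and 0.924 untreated, again without overlap. Krt6a over Krt6b was 11.7, 11.5 and 11.4 with IL-33, against 11.8, 12.1 and 11.4 untreated, and here the groups overlapped. These ratios are given as a description and were not tested.

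How far the counts of these genes can be kept apart depends on their sequence, since a read that lies within a stretch shared by several genes has no single origin. The genes were compared in the GENCODE M21 transcripts (GRCm38, the same assembly as mm10), by asking what share of a gene's windows of 75 bases occurs in a transcript of another gene. Transcripts were read in both orientations, so annotations on the opposite strand of the same place also count as shared. Of the 22 tested keratins, 11 had such windows, and 5 had shared windows of 150 bases. For Krt10, Krt32, Krt75 and Krt90 the only partner was an annotated gene that overlaps them on the opposite strand. The shares of Krt5 and Krt6b include such annotations too, Gm44323 and Gm44383. The share was 56.0% for Krt6a, mainly with Krt6b, 39.6% for Krt6b, 28.9% for Krt16, 23.5% for Krt8, mainly with its processed pseudogene Krt8-ps, 7.77% for Krt5, 5.91% for Krt14 and 0% for Krt17. At 150 bases it was 30.2% for Krt6a, 18.8% for Krt6b, 18.4% for Krt16 and 8.51% for Krt8. At 75 bases Krt6b held 36.2% of the windows of Krt6a, which also shared windows with Gm49428, Gm5478 and Krt5. Krt6b also shared windows with Gm5478 and Gm5414, both annotated as protein coding and outside the family because of their names. The deposited counts of Gm5414 were 446, 342 and 0 with IL-33, against 352, 455 and 433 untreated, so IL-33 replicate 3 stands apart. The split of counts between Krt6a and Krt6b is therefore uncertain. Over the 8 coding exons that have the same length in both genes, 97.8% of 1426 bases were identical.

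A first stretch of the Krt6a and Krt6b genes shows why their counts are hard to separate. It lies in exon 1, at chr15:101694096-101694215 in Krt6a and chr15:101680071-101680190 in Krt6b, both on the minus strand, and all of its 120 bases are the same in both genes.
Krt6a and Krt6b: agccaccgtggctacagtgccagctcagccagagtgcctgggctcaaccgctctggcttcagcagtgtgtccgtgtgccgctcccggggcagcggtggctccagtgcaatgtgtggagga
Another stretch of exon 1 shows the bases by which reads of these genes can be assigned. It lies at chr15:101693826-101693945 in Krt6a and chr15:101679801-101679920 in Krt6b, on the minus strand, and it is the least alike stretch of 120 bases within a coding exon of equal length. Capitals mark the 8 positions at which the genes differ.
Krt6a: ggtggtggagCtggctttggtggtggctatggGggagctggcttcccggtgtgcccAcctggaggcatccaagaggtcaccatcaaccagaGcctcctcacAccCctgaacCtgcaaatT
Krt6b: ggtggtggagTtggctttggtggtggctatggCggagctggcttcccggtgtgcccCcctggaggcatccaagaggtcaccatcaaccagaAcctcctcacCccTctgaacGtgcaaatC

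Krt16 shared most with an annotated unprocessed pseudogene, Gm11597, at chr11:100228845-100232078 between Krt14 and Krt16, which held 22.5% of the windows of 75 bases of Krt16. Its deposited counts were 1278, 885 and 1129 with IL-33, against 1032, 0 and 1062 untreated. The value of 0 in untreated replicate 2 stands apart from the other libraries, and the gene did not pass in edgeR (adjusted p = 0.947). When its counts were added to Krt16, the log2 fold change of the sum was 0.31 and its edgeR adjusted p 0.0766. Krt16 also shared windows of 75 bases with Krt14, but none with Krt17. The 120 coding bases most alike between the 3 genes show how close they are where they encode the end of the central rod, the part of the chain through which type I and type II keratins pair. This stretch lies in exon 6, at chr11:100246632-100246751 in Krt16, chr11:100204130-100204249 in Krt14 and chr11:100257455-100257574 in Krt17, each on the minus strand. Capitals mark the 5 positions at which the 3 genes are not all the same. Krt16 differs from each of the others at 5 of these 120 bases, and Krt14 differs from Krt17 at 1.
Krt16: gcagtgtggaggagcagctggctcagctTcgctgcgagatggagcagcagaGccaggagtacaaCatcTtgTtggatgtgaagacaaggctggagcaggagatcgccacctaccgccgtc
Krt14: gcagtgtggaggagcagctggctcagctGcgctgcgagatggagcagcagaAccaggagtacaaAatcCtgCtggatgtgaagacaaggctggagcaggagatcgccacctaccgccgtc
Krt17: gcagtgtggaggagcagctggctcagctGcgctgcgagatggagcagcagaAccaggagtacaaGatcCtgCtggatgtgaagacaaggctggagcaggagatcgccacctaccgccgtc

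Annotated genes on the opposite strand also overlap several keratins, and the sources used here do not state whether strand was used in counting. The miRNA annotations Gm44323 over Krt5, Gm44342 over Krt6a and Gm44383 over Krt6b averaged 6907, 1940 and 625 deposited counts with IL-33, against 7417, 2067 and 688 untreated. The keratins above them averaged 770780, 414536 and 35474 deposited counts with IL-33, against 789846, 432856 and 36232 untreated, so these overlaps were small beside them.

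The suprabasal keratins were low, with the exception of Krt80. Krt80, a type II keratin of differentiating epithelial cells, had 28.2, 27.2 and 27.5 FPKM with IL-33, against 24.2, 24.5 and 22.5 FPKM untreated. The IL-33 libraries were close together and all above the untreated ones. Its log2 fold change was 0.22 (SE 0.065, 95% interval 0.07 to 0.36; edgeR adjusted p = 0.623). Krt80 contributed most of the suprabasal sum of 30.1 ± 0.678 FPKM with IL-33 and 25.7 ± 1.66 FPKM untreated (SD, n = 3 each).

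Krt1, the type II keratin of the spinous layer, had 0.789, 0.690 and 1.56 FPKM with IL-33, against 0.724, 0.545 and 0.325 FPKM untreated. The groups overlapped, and IL-33 replicate 3 stood far above the other libraries. Its log2 fold change was 0.94 (SE 0.39, 95% interval 0.05 to 1.82; edgeR adjusted p = 0.740), and it ranged from 0.48 to 1.22 when each library was left out in turn. Krt10, its type I partner, had 0.923, 0.906 and 1.04 FPKM with IL-33, against 1.07, 1.29 and 0.677 FPKM untreated, with a log2 fold change of -0.07 (SE 0.28; edgeR adjusted p = 0.977). The untreated libraries spanned all the IL-33 values. Krt78, another type II keratin placed here, was at 0.449 to 0.512 FPKM with IL-33 and 0.233 to 0.641 FPKM untreated. Of the other 4 suprabasal keratins, Krt2, Krt9 and Krt24 were at 0 in all libraries and Krt77 had at most 5 deposited counts.

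The simple epithelial keratins were detected in all libraries, at 0.146 to 0.201% of keratin FPKM. Krt18, the type I member of the pair, had 25.7, 19.5 and 27.4 FPKM with IL-33, against 28.8, 23.8 and 23.6 FPKM untreated. IL-33 replicate 2 was the lowest library and untreated replicate 1 the highest, and the log2 fold change was -0.07 (SE 0.14; edgeR adjusted p = 0.949). Krt8, the type II member, had 8.89, 7.24 and 7.21 FPKM with IL-33, against 8.75, 6.75 and 6.86 FPKM untreated, with a log2 fold change of 0.06 (SE 0.14; edgeR adjusted p = 0.957). Replicate 1 was the highest library in both groups. Unlike Krt5 and Krt14, this pair was unequal in amount: Krt8 over Krt18 was 0.327 ± 0.0568 with IL-33 and 0.293 ± 0.0105 untreated.

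Krt7, a type II keratin of glands and ducts, was at 7.06 to 8.23 FPKM with IL-33 and 6.78 to 7.36 FPKM untreated (log2 fold change 0.07, SE 0.077). Krt19, a type I keratin without a fixed partner, was at 0.598 to 1.13 FPKM with IL-33 and 0.664 to 0.833 FPKM untreated. For both genes the groups overlapped. Krt20, a type I keratin of gut epithelium, was at 0.756 to 0.822 FPKM with IL-33 and 0.660 to 0.978 FPKM untreated. Krt23, another type I keratin, was at 0.674 to 1.01 FPKM with IL-33 and 0.508 to 0.633 FPKM untreated. Of the 6, Krt23 was the only one whose groups did not overlap, with a log2 fold change of 0.48 (SE 0.33; edgeR adjusted p = 0.814), which was 0.25 without IL-33 replicate 1.

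Merkel cells, the touch receptors of the epidermis, also make Krt8, Krt18 and Krt20. The 5 Merkel markers Atoh1, Sox2, Isl1, Chga and Krt20 summed to 1.29 to 1.90 FPKM with IL-33 and 1.75 to 2.21 FPKM untreated, so these markers were low beside Krt18. Isl1 had 0.199 ± 0.0329 FPKM with IL-33 and 0.388 ± 0.153 FPKM untreated (edgeR adjusted p = 0.740). The part of such cells in the levels of Krt8 and Krt18 was not tested.

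Hair and follicle keratins formed the largest class and were close to absent at this depth. Of the 24, 3 were tested, 10 were at 0 in all libraries, and the highest value in any library was 0.854 FPKM. That value belonged to Krt79, a type II keratin of the upper follicle, which had 0.391, 0.854 and 0.617 FPKM with IL-33, against 0, 0.124 and 0.531 FPKM untreated. Its log2 fold change of 1.497 had an SE of 1.1 and a 95% interval of -1.29 to 4.28, so neither direction was established. It was 0.91 without untreated replicate 1, the library at 0, and 3.32 without untreated replicate 3. Krt75, the type II companion layer keratin, was at 0.364 to 0.537 FPKM with IL-33 and 0.283 to 0.341 FPKM untreated (log2 fold change 0.50, SE 0.29; edgeR adjusted p = 0.788). Krt32, a type I hair cuticle keratin, was at 0.0953 to 0.189 FPKM with IL-33 and 0 to 0.277 FPKM untreated.

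No mucosal or corneal keratin was tested. Krt13 and Krt76 were at 0 in all libraries, Krt12 reached 12 deposited counts in 1 library, and Krt4 had 21, 0 and 0 deposited counts with IL-33, against 0, 0 and 5 untreated. Of the 4 others, Krt42, a type I gene next to Krt17, was at 3.14 to 3.53 FPKM with IL-33 and 2.75 to 3.97 FPKM untreated (log2 fold change 0.02, SE 0.17). Krt90 was at 0.590 to 0.807 FPKM with IL-33 and 0.635 to 1.06 FPKM untreated (log2 fold change -0.26, SE 0.27). Krt88 and Krt222 were at 0 in all libraries.

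Below Krt16, many neighbours in the order of FPKM had overlapping ranges. Over the 6 libraries the range of Krt80 overlapped that of Krt18, and the range of Krt8 overlapped that of Krt7, while Krt18 was clear of Krt8, Krt7 of Krt42, and Krt42 of Krt10. From Krt10 downward, through Krt20, Krt90, Krt19, Krt1, Krt23, Krt15, Krt78 and Krt79 to Krt75, each range overlapped the next. Overlap of ranges leaves the order within a library unstated: Krt10 was above Krt20, and Krt17 above Krt6a, in 6 of 6 libraries.

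At the level of transcripts, the deposited table held 75 transcripts of keratin genes, of which 26 were tested. None passed an adjusted p of 0.05 in edgeR over 40163 transcripts, of which 0.0299% passed. At an unadjusted p under 0.05 there were 4, Krt16-201, Krt17-201, Krt5-201 and Krt80-201, where 4.24% of all transcripts had such a p. Each of these 4 held 100% of its gene's counts in every library, so their tests repeat the gene tests on the same counts and add no separate evidence. The main protein-coding transcript took nearly all the counts of the abundant keratins, as with Krt14-201 at 99.9% of Krt14 counts in every library. Several lower keratins divided their counts more unevenly between libraries, among them Krt7, Krt10, Krt15 and Krt32. The retained-intron transcript of Krt7 took 40.1, 0.364 and 0.979% of the gene's counts with IL-33, against 7.37, 13.1 and 0.650% untreated. The high value belonged to IL-33 replicate 1 alone, in which the main protein-coding transcript held 59.0%, against 85.0 to 98.2% in the untreated libraries. Krt15, with few counts, had 65.2, 0 and 19.1% on a retained-intron transcript with IL-33, against 0, 28.6 and 0% untreated.

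Genes that work with keratins were read from the same fit. Of 17 tested genes that link or organise keratin filaments, such as desmosome and cytolinker genes, 12 had a positive log2 fold change (50.5% of all genes did). The median of the 17 was 0.05, and no gene passed the adjusted threshold in edgeR, DESeq2 or limma-voom. An unadjusted p under 0.05 was found for 5, all higher with IL-33, where 3.42% of all genes had such a p with a higher value and 6.74% in either direction. They included Trim29, which codes for a protein that associates with keratins, at 89.8 ± 4.43 FPKM with IL-33 and 78.0 ± 0.297 FPKM untreated (edgeR adjusted p = 0.319). The cytolinkers of the envelope Evpl and Ppl stood at 10.6 ± 0.641 and 16.6 ± 2.26 FPKM with IL-33, against 9.30 ± 0.294 and 13.97 ± 0.0788 FPKM untreated. Dst, which anchors basal keratin filaments at the hemidesmosome, stood at 45.4 ± 2.63 FPKM with IL-33 and 41.8 ± 0.682 FPKM untreated. In each of the 5 genes with an unadjusted p under 0.05, IL-33 replicate 2, the shallowest library, had the highest level of all libraries.

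Among 30 regulators known to act on keratin genes, 18 had a positive log2 fold change (50.5% of all genes did). The median of the 30 was 0.04, and no gene passed the adjusted threshold in edgeR, DESeq2 or limma-voom. Of 5 with an unadjusted p under 0.05, 4 were higher with IL-33 and 1, Fosl1, was lower. Over all genes, 6.74% had such a p, 3.42% with a higher and 3.31% with a lower value. IL-33 replicate 2, the shallowest library, was the highest library for each of the 4 and the lowest for Fosl1. Cebpa, Grhl3 and Klf5, transcription factors of epidermal differentiation and barrier formation, stood at 29.8 ± 1.48, 10.2 ± 0.940 and 60.4 ± 2.49 FPKM with IL-33, against 25.3 ± 2.37, 8.57 ± 0.519 and 55.1 ± 0.405 FPKM untreated. Fosl1, an AP-1 subunit, stood at 16.7 ± 1.07 FPKM with IL-33 and 19.1 ± 0.754 FPKM untreated (edgeR adjusted p = 0.740).

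Of 11 tested genes of other intermediate filaments, 6 had a positive log2 fold change (50.5% of all genes did), with a median of 0.01. An unadjusted p under 0.05 was found for 0 of them, where 6.74% of all genes had such a p. The smallest p belonged to Lmnb1, a nuclear lamin, at 64.8 ± 1.31 FPKM with IL-33 and 60.1 ± 3.58 FPKM untreated (edgeR adjusted p = 0.762). The lamins Lmnb2 and Lmna stood at 15.1 ± 1.31 and 157 ± 29.8 FPKM with IL-33, against 13.97 ± 0.270 and 134 ± 3.18 FPKM untreated. Bfsp1, a beaded filament gene of the lens, was near 0, at 0.270 ± 0.169 FPKM with IL-33 and 0.206 ± 0.154 FPKM untreated.

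Of 13 tested genes of suprabasal differentiation other than keratins, 7 had a positive log2 fold change (50.5% of all genes did). The median of the 13 was 0.02, and no gene passed the adjusted threshold in edgeR or limma-voom. An unadjusted p under 0.05 was found for 2 (6.74% of all genes), 1 higher (3.42% of all genes) and 1 lower (3.31%). Ly6d, a surface protein of keratinocytes, stood at 137 ± 7.74 FPKM with IL-33 and 112 ± 3.55 FPKM untreated (log2 fold change 0.29, SE 0.059; edgeR adjusted p = 0.307), and it was called by DESeq2 (adjusted p = 0.0158). Ivl, a precursor of the cornified envelope, stood at 1.90 ± 0.463 FPKM with IL-33 and 2.67 ± 0.244 FPKM untreated (edgeR adjusted p = 0.740). Dsg1b and Dsc1, cadherins of suprabasal desmosomes, stood at 0.789 ± 0.0895 and 0.216 ± 0.0517 FPKM with IL-33, against 0.583 ± 0.0338 and 0.130 ± 0.0862 FPKM untreated.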

How the data were processed

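RNA libraries were made from total RNA with an mRNA-seq kit, per the labels' protocols. Per the submitters' processing notes, StringTie 1.3.4d, HISAT2 2.1.0, DESeq2 1.18.1, FastQC 0.11.7 and the build mm10 were used, with no role or order given. No annotation release is given in those notes or the labels. The authors deposited estimated counts per gene and per transcript as whole numbers, so no rounding was needed. They are not raw reads: low values pile up at multiples of 4, so 4 deposited counts were taken as about 1 fragment, which gives 8547043 to 11316574 fragments per library and a floor of 3 fragments (12 counts). The authors also deposited FPKM, which are scaled to feature length and depth. Levels here are FPKM, and tests use the deposited estimated counts. Floors and counting limits cover counting error only.

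Ensembl identifiers were matched, without their version, to GENCODE M21, which named 52403 of 52550 genes. All 15778 genes passing edgeR's low-count filter were fitted in edgeR 4.0.16 (R 4.3.3; TMM scaling, robust quasi-likelihood test, group as the only term) and adjusted by Benjamini-Hochberg over all of them, with 0.05 as the threshold; log2 fold changes, standard errors and 95% intervals come from this fit. The alternatives were other scalings and filters, a replicate block, leaving out each library, DESeq2 1.42.0 and limma 3.58.1. The fit was also run on simulated data, with changes larger than those of most tested keratins. That run does not show whether changes as small as theirs would be found. The rule for members reads gene names, but the family and the gene lists were chosen with earlier results of these data known. Values in every library are given for keratins of at least 50 FPKM, the 5 with the smallest p and the pairs of the basal, stress, suprabasal and simple classes; of each other list, up to 4 genes with the smallest p are named. Genes or transcripts outside that rule, such as Krt79, Krt4, Gm11597, Gm5414, Lyz2 and the Krt7 transcripts, were named after their values were seen. No pair of libraries agreed within sampling noise. Printed sequences were cut from the GENCODE M21 transcripts.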

Additional observations from a re-analysis of the deposited data

How the results depend on the processing

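Of 416 keratin log2 fold changes recomputed under 19 alternatives, 397 kept their direction and their side of the threshold, 16 changed sign and 3, all of Krt16, passed it. Krt16 ranged from 0.26 to 0.31. The 11 genes called by edgeR became 17 with no filter, 73 with DESeq2, 5 with limma-voom, and 4, 4 and 4 with limma on log2 FPKM (pseudocounts of 0.1 and 1, and 0.1 with no filter). Leaving out each library gave 11 to 90 genes, the highest being 90 without IL-33 replicate 3, while it was 20 when replicate 1 of the IL-33 group was left out and 18 when replicate 3 of the untreated group was. The count of keratins called, 0, became 1 with no filter and with DESeq2, and 0 to 1 when a library was left out. The related genes called went to 1 with DESeq2. The cause of these changes was not tested. The log2 ratio of summed keratin FPKM stayed at 0.04 to 0.09, and no keratin transcript was called under any of the 10 transcript settings.

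With the replicate number as a block, 8 genes and 0 keratins were called. Same-numbered libraries did not deviate together (correlations of 0.03, -0.00 and -0.02). With 3 libraries per group this cannot settle whether the numbers pair the libraries, and the labels do not say. Under the block Krt20 had a log2 fold change of 0.0010, opposite in sign to its value of -0.02. The other changes of sign came from leaving out a library: the log2 fold change ranged from -0.17 to 0.061 for Krt18, -0.045 to 0.19 for Krt8, -0.0063 to 0.11 for Krt7, -0.10 to 0.17 for Krt42, -0.29 to 0.14 for Krt10, -0.13 to 0.16 for Krt20, -0.047 to 0.40 for Krt19, -0.42 to 0.21 for Krt15 and -0.13 to 1.97 for Krt32. Among keratins that kept their sign, leaving out a library moved the log2 fold change by over 1.5 times for Krt78 (0.036 to 0.87), Krt6a (0.019 to 0.081), Krt14 (0.0079 to 0.058), Krt79 (0.91 to 3.32; 3.08 in limma-voom and 2.29 under the block), and also for Krt90 (-0.44 to -0.084), Krt5 (0.042 to 0.10), Krt6b (0.050 to 0.11), Krt23 (0.25 to 0.59) and Krt1 (0.48 to 1.22). Depth limits the keratins under 2 FPKM most: Krt79 and Krt32 had libraries at 0, and the 31 untested keratins were at or near the floor.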
